A study of Mus musculus with 16 samples.

Results

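Transcripts of the integrin and laminin genes were measured in cortical bone of the femur by RNAseq. The genes were taken by symbol as all rows named as an integrin alpha or beta chain or as a laminin alpha, beta or gamma chain, except Itga2b, the platelet integrin alpha chain. They are 34 of the 36829 features listed for each mouse, 23 integrin chains and 11 laminin chains. Bone came from female C57Bl/6 mice that were 11 weeks of age at the start, with 8 mice under normal weightbearing (Control 1 to 8) and 8 mice under hindlimb unloading for 7 days (HLU 1 to 8). In hindlimb unloading the tail is held in a harness so that the hind limbs bear no load while the forelimbs still do. The ends of the bone were cut off and the marrow flushed out with saline before RNA was isolated, and each mouse gave its own library. No transgene or drug was part of the design. The labels do not say which libraries shared a sequencing lane, so a lane effect could not be fitted.

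Integrins are receptors made of an alpha and a beta chain that join the actin cytoskeleton to the matrix or to another cell, and the pairing sets the ligand. In bone, integrins of osteoblasts and osteocytes bind collagen and RGD proteins such as osteopontin and bone sialoprotein, alpha v beta 3 is known from osteoclasts, and the leukocyte chains are known from blood cells. Where in the flushed bone any remaining blood cells lay was not measured. Laminins are trimers of an alpha, a beta and a gamma chain that form basement membranes around vessels, nerves, muscle and fat cells.

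The deposited unit is RPKM, a read density scaled by gene length and library size, so that levels of different genes can be compared per length. The library totals behind the values ranged from 7067512 reads in Control 2 to 21363584 reads in HLU 6, and the next smallest library was HLU 5 with 7838277 reads. Totals did not differ between groups by more than the spread between mice (p = 0.502, two-sided exact permutation test). The osteocyte transcripts Dmp1 and Sost had means of 112 and 68.9 RPKM in Control, but granulocyte transcripts remained abundant after flushing, with 10 of 14 markers listed and a summed level of 18221 to 38760 RPKM in Control and 12979 to 45804 RPKM in HLU. None of 11 skeletal muscle markers was among the listed rows, so carry-over of muscle could not be measured. In tissue RNA of this kind, fewer cells of a type cannot be told apart from less RNA per cell.

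Only chains whose mean across all mice reached 0.5 RPKM were tested, and 27 of the 34 did, 19 integrins and 8 laminins. The 7 others were Itgae, Itga3, Itgb4, Itgb8, Lama1, Lama5 and Lamb3. Their highest value in any mouse was 0.515 RPKM for Itgae, 0.699 RPKM for Itga3, 0.356 RPKM for Itgb4 and 0.243 RPKM for Itgb8 among integrins. Among laminins it was 0.331 RPKM for Lama1, 0.981 RPKM for Lama5 and 0.103 RPKM for Lamb3. Lamb3 had between 0 and 10 reads per library. Rows named Itgal and Itgb2 were not among those found and were not analysed here, which leaves 6 of the 8 leukocyte chains that were sought.

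Itgb1 and Itgb3 were the most abundant chains, followed by Itgam (means of 99.1, 86.3 and 45.4 RPKM over all mice). Itgb1 exceeded Itgb3 in 11 of 16 mice, Itgb3 exceeded Itgam in 16 of 16, and Itgam exceeded the next chain, Itgb5, in 15 of 16. Below these levels most neighbours in the order exchanged places between mice, as Itga4 and Itgb7 did, of which Itga4 was the higher in 8 of 16. The gene lengths behind the deposited values matched those of the GENCODE M21 exons for 0 of the 34 chains, with ratios from 0.455 to 1.85. By the GENCODE lengths the means would be 143 RPKM for Itgb1, 87.0 RPKM for Itgb3 and 84.0 RPKM for Itgam, so the gap between Itgb3 and Itgam depends on the annotation. Comparisons between groups do not depend on it, because a gene's length is the same in every mouse.

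**Figure D1:**
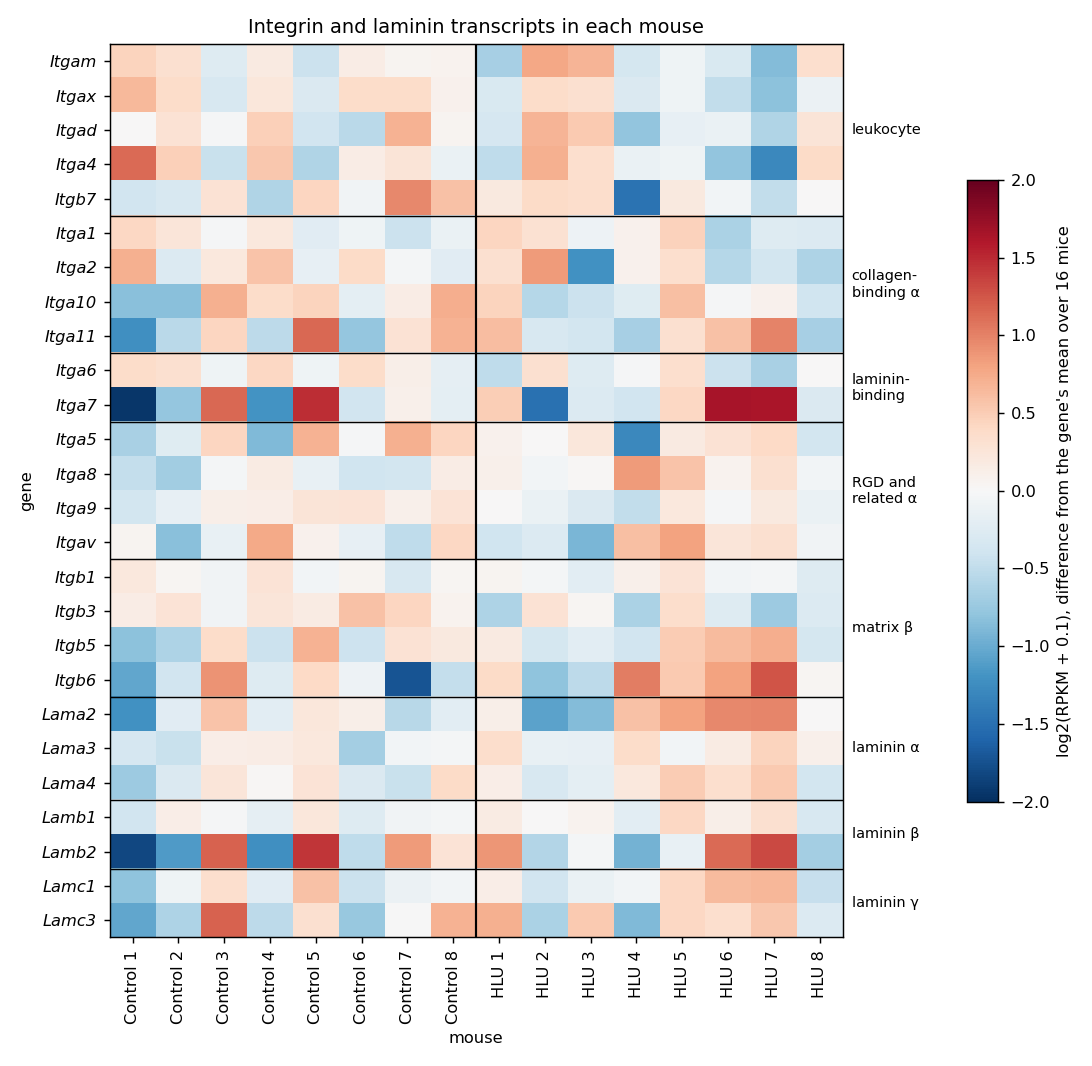
Level of 26 of the 27 tested chains in each mouse, as the difference of log2(RPKM + 0.1) from the gene's mean over 16 mice, with rows grouped by role and the vertical line dividing Control from HLU. Itgam, Itgax and Itga4 are high together in HLU 2 and HLU 3 and low together in HLU 7, while Itga7 and Lamb2 are low in Control 1 and high in Control 5 and HLU 7.

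Itgam encodes the alpha M chain (CD11b) of the Mac-1 receptor of granulocytes, monocytes and macrophages. It ranged from 32.1 to 58.9 RPKM with a median of 46.6 in Control and from 23.7 to 73.9 RPKM with a median of 37.9 in HLU. The HLU mice held both the lowest and the highest values, with 2 mice below and 2 above every Control mouse. Itga4, the alpha 4 chain that pairs with Itgb1 or Itgb7 to bind VCAM1 and fibronectin, ranged from 7.16 to 24.1 RPKM (median 12.6) in Control and from 4.42 to 17.9 RPKM (median 10.1) in HLU. Itgb7, the beta chain of lymphocyte homing receptors, had a mean of 9.75 RPKM over all mice. Itgad (CD11d) and Itgax (CD11c), neighbours of Itgam on chromosome 7 that also encode alpha chains of myeloid cells, had means of 3.68 and 2.41 RPKM.

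The promoter windows of 4 genes are printed because the comparison between mice turns on them, Itgam and Itgax as leukocyte chains that varied together and Itga11 and Itgb5 as matrix chains that varied against Itgam. Each window is the 250 bases before the annotated start in RefSeq (GRCm38.p6), written 5′ to 3′ on the gene's strand. Capitals mark GAGGAA or its reverse complement TTCCTC, the core bound by PU.1, an ETS factor of myeloid cells. The windows are chr7:128062390-128062639, chr7:128129300-128129549, chr9:62677605-62677854 and chr16:33829415-33829664, all on the plus strand.
Itgam: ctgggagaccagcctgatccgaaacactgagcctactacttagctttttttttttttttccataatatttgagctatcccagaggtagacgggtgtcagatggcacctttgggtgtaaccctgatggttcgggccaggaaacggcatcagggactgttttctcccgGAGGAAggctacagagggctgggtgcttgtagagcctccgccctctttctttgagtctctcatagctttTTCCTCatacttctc
Itgax: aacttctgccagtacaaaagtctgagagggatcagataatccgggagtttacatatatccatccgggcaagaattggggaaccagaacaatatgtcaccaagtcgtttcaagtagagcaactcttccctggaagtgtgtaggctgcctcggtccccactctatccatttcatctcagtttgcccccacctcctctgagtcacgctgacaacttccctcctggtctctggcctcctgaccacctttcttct
Itga11: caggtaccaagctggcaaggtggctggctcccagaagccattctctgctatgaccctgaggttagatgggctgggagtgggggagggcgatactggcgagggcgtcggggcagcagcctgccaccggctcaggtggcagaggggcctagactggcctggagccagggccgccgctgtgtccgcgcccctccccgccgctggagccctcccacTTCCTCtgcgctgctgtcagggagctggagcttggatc
Itgb5: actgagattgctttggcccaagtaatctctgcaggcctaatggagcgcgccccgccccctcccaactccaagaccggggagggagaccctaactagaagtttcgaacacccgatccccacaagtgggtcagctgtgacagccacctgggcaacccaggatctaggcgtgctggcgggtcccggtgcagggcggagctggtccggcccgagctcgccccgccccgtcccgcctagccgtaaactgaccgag
Of the 34 chains, 22 had a window in the table, and 10 of the 22 held the core on either strand against 23.3% of all 32851 windows of this length. Enrichment was not tested. The windows of Lama2 and Lamb3, both among the 10, lay 2816 and 94295 bases from the gene's start in GENCODE. That of Itga9, which lacked the core, lay 105002 bases from it. The median GC content was 58.6% in the 22 windows and 52.4% in all windows. Itgam held it at 84 and 15 bases before the start, Itga11 at 38 bases, and the other 2 windows lacked these letters. By group the core was found in 1 of 4 leukocyte chains and 9 of 18 other chains, so its presence did not follow the division into leukocyte and matrix chains. A match of 6 letters is a description of the sequence and not of binding.

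The collagen-binding alpha chains were led by Itga10, known from chondrocytes and osteoblasts, and Itga11, known from fibroblasts and osteoblasts. Itga10 ranged from 4.77 to 14.3 RPKM (median 10.3) in Control and from 5.73 to 13.1 RPKM (median 7.86) in HLU. Itga11 ranged from 1.84 to 9.92 RPKM (median 4.25) in Control and from 2.76 to 8.89 RPKM (median 4.54) in HLU, so both genes overlapped between the groups over most of their range. Itga2, the collagen receptor chain of platelets and epithelium, and Itga1 had means of 3.67 and 2.14 RPKM.

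Of the laminin-binding chains, Itga6 ranged from 7.80 to 11.9 RPKM (median 10.4) in Control and from 5.62 to 11.2 RPKM (median 8.07) in HLU. Itga6 pairs with Itgb1 in many cells, including platelets and endothelium, and 4 HLU mice lay below every Control mouse. Itga7, the laminin receptor chain of muscle and vessel walls, varied most of the tested integrins on the linear scale, from 0.918 to 10.8 RPKM (median 3.11) in Control and from 1.29 to 12.2 RPKM (median 4.13) in HLU. Its spread within groups came to 77.8% of the mean, against 21.1% for Itga6.

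Among the alpha chains that bind RGD or related motifs, Itga5, the fibronectin receptor chain, ranged from 4.64 to 14.2 RPKM (median 9.99) in Control and from 3.48 to 11.3 RPKM (median 9.42) in HLU. Itgav, the common partner of Itgb3, Itgb5, Itgb6 and Itgb8, ranged from 3.81 to 11.7 RPKM (median 6.68) in Control and from 3.60 to 12.1 RPKM (median 7.35) in HLU. Itga9 had a mean of 3.04 RPKM, with a spread within groups of 15.9% of the mean. Itga8, a receptor chain for nephronectin and osteopontin, had a mean of 0.709 RPKM.

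Among the beta chains, Itgb1, which pairs with most of the alpha chains above, was also the most even, with a spread within groups of 12.1% of the mean. It ranged from 79.1 to 118 RPKM (median 101) in Control and from 82.5 to 119.7 RPKM (median 95.9) in HLU. Set against the summed level of its 12 alpha partners in the same mouse, Itgb1 was 1.13 to 1.92 times as abundant with a median of 1.49. Itgb3 exceeded Itgav, the only partner of Itgb3 among these chains, by 5.11 to 26.6 times with a median of 11.7. The other partner is Itga2b, which is outside the set and had a mean of 14.1 RPKM. Itgb5 had a mean of 15.4 RPKM and Itgb6, which pairs with Itgav in epithelium, of 1.40 RPKM.

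Among the laminin chains, Lama2, the alpha chain of muscle and nerve basement membranes, ranged from 2.16 to 7.68 RPKM (median 4.44) in Control and from 2.39 to 10.2 RPKM (median 6.70) in HLU. Lama4, the alpha chain of vessels, ranged from 1.85 to 4.10 RPKM (median 2.87) in Control and from 2.40 to 4.55 RPKM (median 3.53) in HLU. Both extended higher in HLU, with 4 HLU mice above every Control mouse for Lama2 and 2 for Lama4. Lamc1, the gamma chain of most laminins, ranged from 3.39 to 9.06 RPKM (median 5.58) in Control and from 4.35 to 9.61 RPKM (median 6.19) in HLU. It had the highest mean of the laminin chains over all mice (6.26 RPKM, against 5.70 RPKM for Lama2), but exceeded Lama2 in only 9 of 16 mice. Lamb2 ranged from 0.965 to 9.98 RPKM (median 3.50) in Control and from 1.85 to 9.26 RPKM (median 3.41) in HLU. Lamb1, the other broadly used beta chain, was far more even, from 1.81 to 2.81 RPKM (median 2.29) in Control and from 1.88 to 3.22 RPKM (median 2.55) in HLU. The spread of Lamb2 within groups was 69.6% of the mean and that of Lamb1 16.3%. Lamc3 ranged from 0.343 to 1.98 RPKM (median 0.673) in Control and from 0.396 to 1.40 RPKM (median 1.09) in HLU. Lama3, a chain of epithelial laminin, stayed near the limit with a mean of 0.564 RPKM.

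The comparison of HLU with Control asked whether unloading altered the abundance of these chains. By limma, at a p under 0.05 before adjustment and with a 1.2-fold or larger change, 1 chain was higher in HLU (Itga8) and 1 was lower (Itgb3), out of 27. Across all 16973 features tested, 5.87% passed in either direction, 1.11% as higher and 4.76% as lower, so a count of 2 in 27 is close to what the whole table gave. After Benjamini-Hochberg adjustment over all features at 0.1, no chain and no feature passed in limma (0%), and the lowest adjusted p among the chains was 0.744. Limma's voom method on reads recovered from the RPKM values also called the same 2 chains without adjustment and none with it. The all-gene split of calls was 188 higher and 808 lower as deposited, 381 and 395 with median-of-ratios scaling, and 460 and 364 with quantile normalization, and Itgb3 and Itga8 were called under each of the 3. The values of the 2 groups were fully separate for none of the 27 chains and for 0.0295% of all features.

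Itgb3 encodes the beta 3 chain of the vitronectin receptor and of the platelet fibrinogen receptor (chr11:104608000-104670476, plus strand, GENCODE M21 on GRCm38). It was at 92.5, 101, 79.4, 98.5, 93.8, 125, 113 and 87.4 RPKM in Control 1 to 8 and at 54.3, 102, 86.1, 53.7, 106, 69.5, 50.1 and 68.9 RPKM in HLU 1 to 8. The groups overlapped through HLU 2, HLU 3 and HLU 5, while the other 5 HLU mice lay below every Control mouse. The means were 98.9 ± 14.5 RPKM (SD, n = 8) in Control and 73.8 ± 21.9 RPKM (SD, n = 8) in HLU, and the log2 fold change was -0.46 with an SE of 0.16 (adjusted p = 0.744, limma). The two-sided exact permutation test over the 12870 ways to split the mice gave p = 0.0171. At 4257 to 11939 reads per library, counting error is small beside the spread between mice. The call was kept when each mouse was left out in turn, with a range from -0.55 to -0.39 on the log2 scale.

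Megakaryocyte and platelet transcripts moved with Itgb3. In HLU the score of 8 megakaryocyte markers, the mean of their centred log2 values, was lower by 0.55 (exact permutation p = 0.0389 and 0.325 after adjustment over the marker lists), and its summed level was 984 to 1648 RPKM in Control and 427 to 1419 RPKM in HLU. Of the 8 markers, the largest log2 differences were those of Pf4 (platelet factor 4) and Gp6, the platelet collagen receptor. Pf4 had a mean of 185 RPKM in Control and 106 RPKM in HLU, and Gp6 of 16.2 and 10.4 RPKM. The smallest was that of Gp1bb, with means of 10.8 and 9.96 RPKM (exact permutation p = 0.527). Itga2b, itself among the 8 markers of the score, had means of 16.5 ± 7.94 and 11.6 ± 5.77 RPKM (SD, n = 8 each). This difference was within the spread between mice (exact permutation p = 0.183). The score of 6 osteoclast markers differed by -0.02 (exact permutation p = 0.940), and its members went both ways. Ctsk (cathepsin K, means of 676 RPKM in Control and 815 RPKM in HLU), Ocstamp and Dcstamp had higher means in HLU. Acp5 (378 RPKM in Control and 358 RPKM in HLU), Atp6v0d2 and Oscar (8.52 and 6.81 RPKM) had lower means in HLU. With each mouse centred on its group mean, Itgb3 followed the megakaryocyte score (Pearson's r = 0.85, p = 0.0006; Spearman's rho = 0.80, p = 0.00127, 100000 permutations within groups, 16 mice). The adjusted p over the 4 relations was 0.0024, r was 0.66 within Control and 0.90 within HLU, and without the 2 mice farthest from the median it was 0.76. For Itga2b r was 0.61 (p = 0.0166; rho = 0.62, p = 0.0182; adjusted p = 0.0332) and 0.45 without 2 mice. For Itgav r was -0.17 (p = 0.577; rho = -0.29, p = 0.305) and for the osteoclast score -0.12 (p = 0.667; rho = -0.23, p = 0.416). Itgb3 also followed the granulocyte score (r = 0.72, and 0.54 without 2 mice). Its adjusted permutation p was 0.0311 over 162 relations of the chains with library measures, set after the data had been seen. Of the 27 chains in those relations, 5 were positively and 2 negatively related to the megakaryocyte score at an adjusted p under 0.05. Itgam was among the 5 (r = 0.67). The share of all features that followed this score was not computed. With the megakaryocyte score as a covariate the log2 fold change of Itgb3 was -0.14, which did not pass in limma. The part of platelet RNA in the lower level of Itgb3 was not tested.

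Itga8 (chr2:12106632-12301922, minus strand) was at 0.462, 0.381, 0.662, 0.773, 0.604, 0.491, 0.505 and 0.766 RPKM in Control 1 to 8 and at 0.739, 0.655, 0.692, 1.31, 1.06, 0.717, 0.876 and 0.653 RPKM in HLU 1 to 8. All 8 HLU mice were above the Control median, and 3 of them were above every Control mouse. The means were 0.580 ± 0.145 and 0.838 ± 0.235 RPKM (SD, n = 8 each), and the log2 fold change was 0.46 with an SE of 0.20 (adjusted p = 0.744, limma). The exact permutation p was 0.0117. The level rests on 26 to 207 reads per library, and reads of E030013I19Rik, which overlaps Itga8 on the opposite strand, cannot be told apart from those of Itga8 because the library kit did not mark strand. The call was lost when Control 1, 2, 6 or 7 or HLU 4, 5 or 7 was left out, where the value ranged from 0.37 to 0.44. Itga8 followed the score of 6 osteocyte markers between mice (Pearson's r = 0.71, p = 0.00295; Spearman's rho = 0.81, p = 0.00047; 0.60 without 2 mice; adjusted p = 0.0106 over 162 relations that were set after the data had been seen). That score was 0.47 higher in HLU (exact permutation p = 0.0696 and 0.325 after adjustment over the marker lists), and its part in the difference of Itga8 was not tested. Of the 27 chains, 10 were positively and 3 negatively related to it at an adjusted p under 0.05, with the share over all features not computed. Itga8 also ran against the granulocyte score (r = -0.59, adjusted permutation p = 0.0446 over the same relations). The call was also lost with a pseudocount of 1, where the difference was 0.21 and thus under 1.2-fold, and without the 2 smallest libraries, where it was 0.34. With erythroid and granulocyte scores as covariates in limma the log2 fold change of Itga8 was 0.37, and with the megakaryocyte score it was 0.26, and neither passed.

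Next in the order of limma p, and not called, were Itga6 (log2 fold change -0.31 ± 0.16 SE, exact permutation p = 0.0737), Itgax (-0.36 ± 0.19 SE, exact permutation p = 0.0716) and Itgb6 (0.67 ± 0.37 SE, exact permutation p = 0.102). Itgb6 was at 0.294 to 2.32 RPKM in Control and 0.645 to 3.03 RPKM in HLU, and 6 of 8 HLU mice were above the Control median. Itgb1, the reference chain of the ratios below, differed by -0.04 ± 0.10 (SE), and the sign of this value turned with median-of-ratios scaling (0.05) and quantile normalization (0.09).

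**Figure D2:**
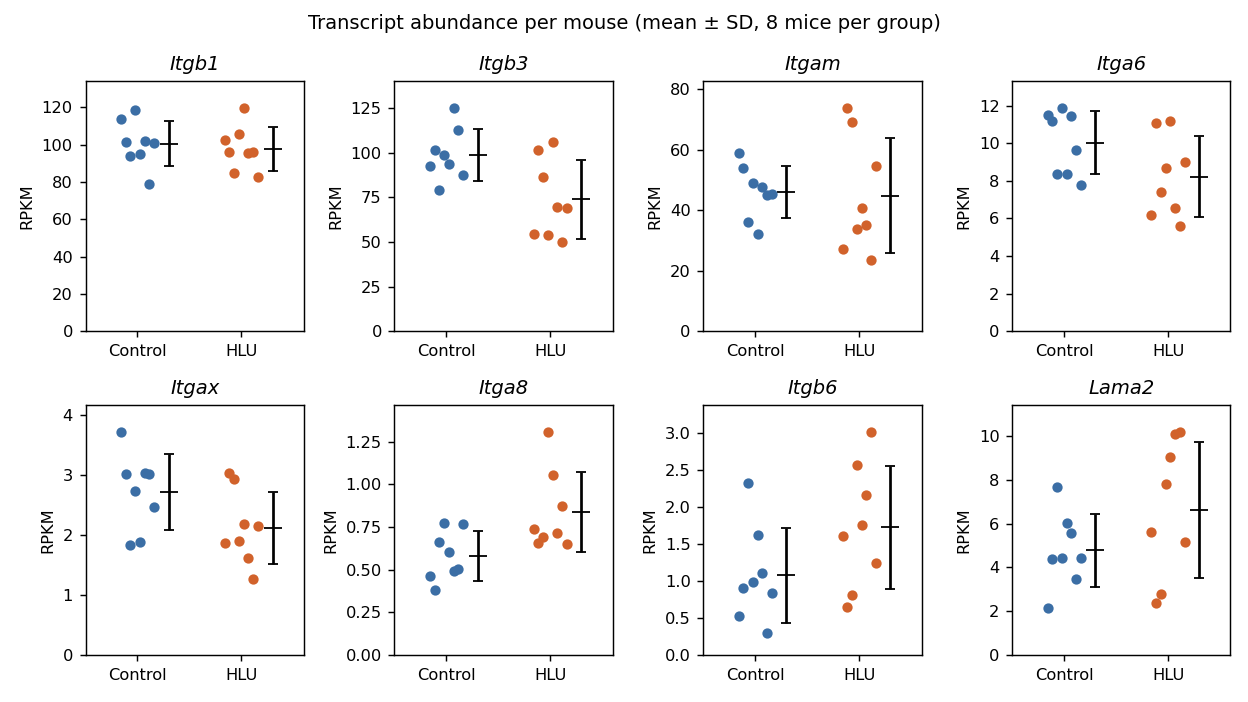
RPKM of 8 chains in each mouse, with Control in blue, HLU in orange, and the horizontal tick and bar giving mean and SD of 8 mice. In the Itgb3 panel 5 HLU mice lie below every Control mouse, and in the Itga8 panel 3 HLU mice lie above every Control mouse.

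By group, the 5 leukocyte chains had lower mean log2 values in HLU, and none passed the test (median log2 fold change -0.22, against -0.10 over all features), although with quantile normalization Itgam came to 0.00. Of the 14 matrix integrin chains, 7 had higher and 7 lower values (median -0.02). Of the 8 laminin chains, 7 had higher values and none passed the test (median 0.20), with Lama2 at 0.38 ± 0.32 (SE) and Lama3 at 0.26 ± 0.20. Summed over its chains, the laminin level was 22.3 ± 7.79 RPKM in Control and 26.1 ± 8.85 RPKM in HLU (SD, n = 8 each), and that of the matrix integrins 270.5 ± 13.8 and 243 ± 34.4 RPKM. The direction of a list was not tested.

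**Figure D3:**
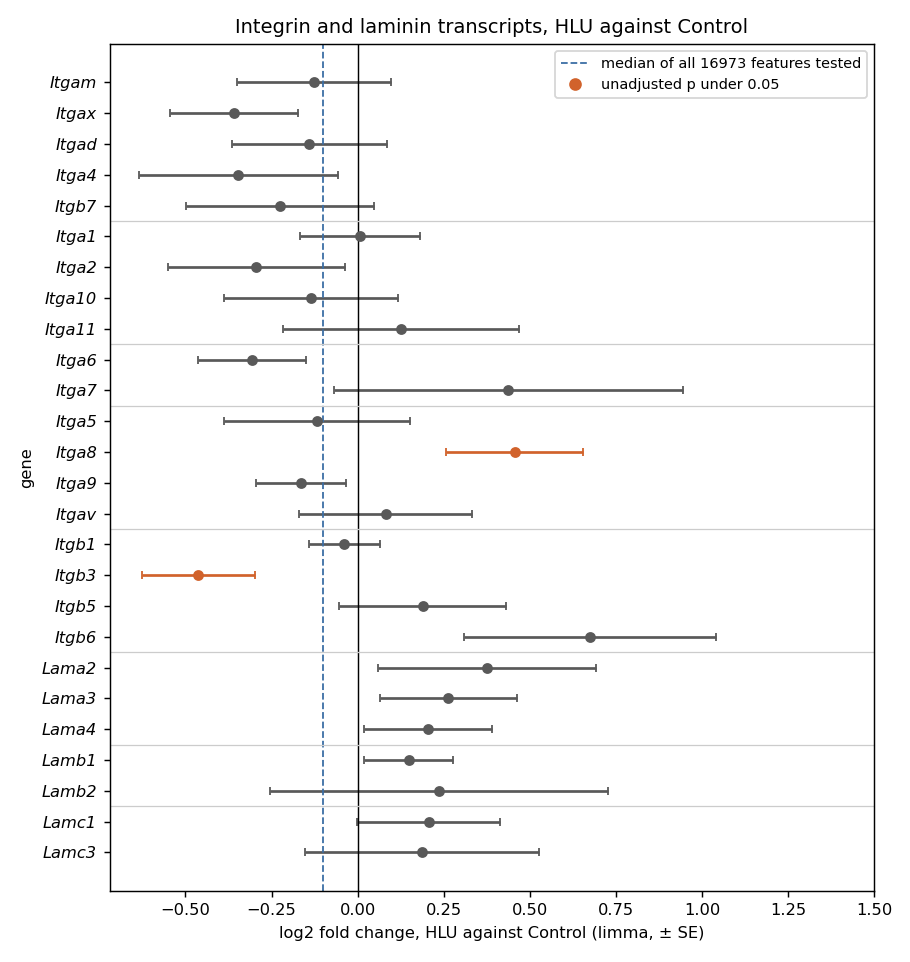
Log2 fold change of HLU against Control with its SE for 26 of the 27 tested chains (limma), grouped by role, with the dashed line at the median of all 16973 features. The 2 chains with an unadjusted p under 0.05, Itgb3 at -0.46 and Itga8 at 0.46, are in orange, and the laminin chains drawn lie right of 0.

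Ratios within a library do not depend on how libraries are scaled, and 3 were compared. Their chains were unlike in r with the GC slope of the library described further on. It was -0.56 for Itgb1, -0.00 for Itgb3, 0.80 for Itgb5, 0.65 for Lamb1 and 0.91 for Lamb2. The part of that slope in the ratios was not tested. The Itgb3 to Itgb1 ratio was 0.813 to 1.43 in Control and 0.509 to 1.06 in HLU, with 6 of 8 HLU mice below the Control median. Its log2 difference was -0.42 (exact permutation p = 0.0430, adjusted p over the 3 ratios = 0.129), which does not pass after adjustment. The Itgb5 to Itgb1 ratio differed by 0.23 (exact permutation p = 0.432) and the Lamb2 to Lamb1 ratio by 0.09 (exact permutation p = 0.852). The Lamb2 to Lamb1 ratio ranged from 0.534 to 3.59 among Control mice alone, so a difference of this size was not detectable.

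Genes known to work with integrins and laminins were counted against all features, of which 5.87% passed and 5450 had higher and 11523 lower values. Of 38 genes of the integrin adhesome, the proteins that join integrins to actin, 33 were tested and 0 passed (9 had higher and 24 lower values, median -0.11 against -0.10 over all features), a split close to that of the whole table. The lowest p in that list was that of Syk, a kinase that signals from integrins in blood cells, at -0.38 (exact permutation p = 0.0690). Of 26 integrin ligands, 22 were tested (12 higher and 10 lower, median 0.14) and 1 passed (4.55%), which was Cdh1, E-cadherin and the ligand of the Itgae receptor, at 0.757 ± 0.235 RPKM in Control and 0.480 ± 0.236 RPKM in HLU (SD, n = 8 each). The log2 fold change of Cdh1 was -0.62 ± 0.28 (SE, adjusted p = 0.744 in limma, exact permutation p = 0.0314). The main bone ligands did not pass, with Spp1 (osteopontin) at 0.46 (exact permutation p = 0.105) and Col1a1 at -0.13. Of 20 basement membrane partners of laminin, 14 were tested (11 higher and 3 lower, median 0.09) and 1 passed (7.14%), which was Nid2, the nidogen that links laminin to collagen IV, at 1.65 ± 0.443 and 2.19 ± 0.316 RPKM (SD, n = 8 each). The difference for Nid2 was 0.43 ± 0.17 on the log2 scale (SE, adjusted p = 0.744 in limma, exact permutation p = 0.00948).

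Leukocyte and matrix chains were next compared between mice within the groups. Itgam was set against 16 other chains, with each mouse centred on its group mean. It rose and fell with the myeloid chains Itgax (Pearson's r = 0.89) and Itgad (r = 0.73) and with Itga4 (r = 0.89), Itgb3 (r = 0.68) and Itga6 (r = 0.66). It ran against Lamc1 (r = -0.75), Lama4 (r = -0.72), Itgb5 (r = -0.69), Itga11 (r = -0.69) and Lamb2 (r = -0.66). These 10 of 16 relations passed an adjusted p of 0.05 over the 16. How many of all features would pass with Itgam was not computed, so the count is not a trait of these chains. The highest adjusted p of the 10 was that of Itgb3 (p = 0.0203, rho = 0.62 with p = 0.0285, adjusted p = 0.0325) and the most negative relation was Lamc1 (p = 0.0009, rho = -0.80 with p = 0.00065, adjusted p = 0.0048). The 6 others were Itgb7 (r = 0.18, p = 0.580), Itga1 (r = 0.22, p = 0.477), Itga5 (r = -0.24, p = 0.386), Itgb1 (r = -0.13, p = 0.659), Itgav (r = -0.37, p = 0.198) and Lamb1 (r = -0.44, p = 0.126). Spearman's rho had the same sign as r in all 16. Permutation p-values came from 100000 permutations within groups. Without the 2 mice farthest from the median of Itgam 8 relations passed, with Itgb3 at r = 0.48 and Itga6 at r = 0.45 no longer among them. Within Control alone r was 0.94 for Itga4, -0.93 for Itgb5 and -0.91 for Lamc1, and within HLU alone 0.91, -0.66 and -0.74. The sign was the same in both groups for these 3 chains, while Itgb7 was at -0.57 in Control and 0.50 in HLU.

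**Figure D4:**
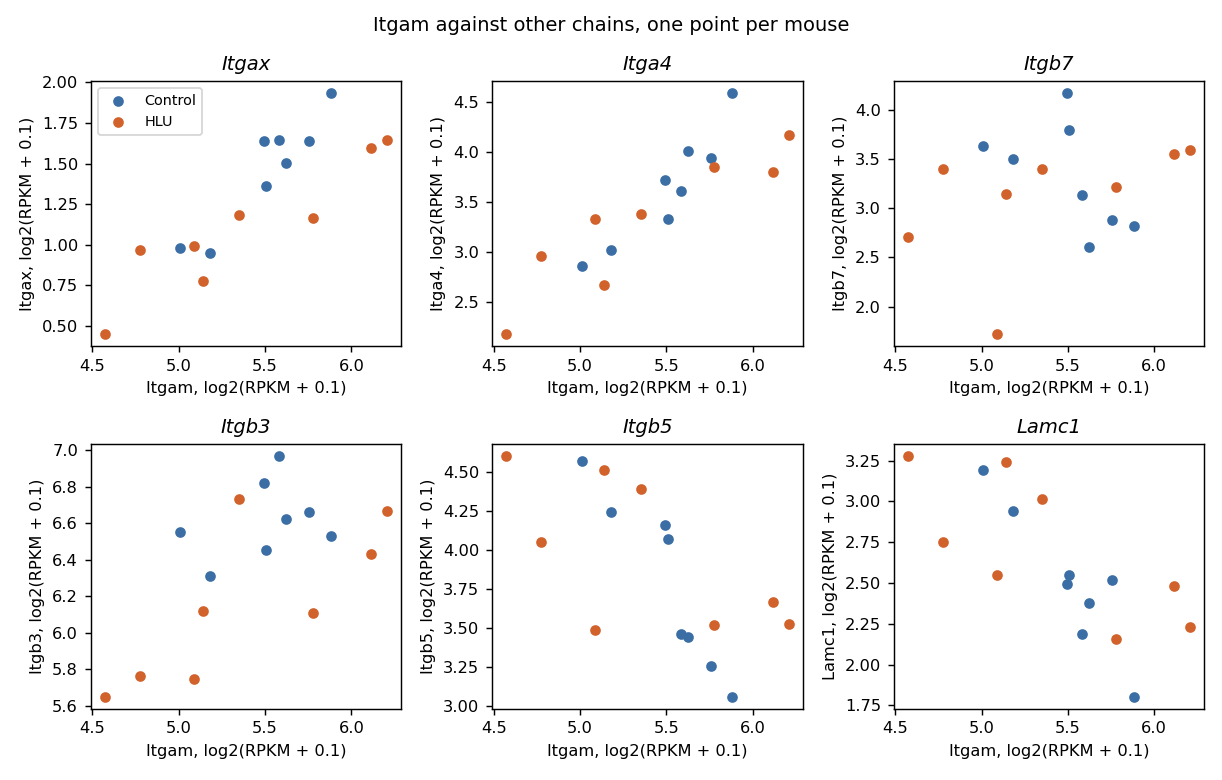
Level of Itgam on the x axis against that of 6 other chains on the y axis, both as log2(RPKM + 0.1), with Control mice in blue and HLU mice in orange. Itgax and Itga4 rise with Itgam (r = 0.89 for each) and Itgb5 and Lamc1 fall (r = -0.69 and -0.75), while Itgb7 shows no slope over all mice (r = 0.18).

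Averaged over their chains, the score of the 5 leukocyte chains had r = -0.63 with that of the 14 matrix integrins and -0.70 with that of the 8 laminins, and the 2 matrix scores had r = 0.89 with each other. These values are descriptions, since the scores are means over chosen chains. The leukocyte score had an SD of 0.25 among Control mice and 0.50 among HLU mice. All 28 pairs of laminin chains were positively related (median r = 0.59), as were 9 of 10 leukocyte pairs (median 0.61) and 56 of 91 matrix integrin pairs (median 0.15). Of the 40 pairs of a leukocyte and a laminin chain, 4 were positive (median -0.60). Pairs of a leukocyte and a matrix integrin chain were mixed, with 25 of 70 positive, a median of -0.26 and a range from -0.94 to 0.84.

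The chains were also set beside marker scores of blood, vessel and bone cells in the same mice, in those 162 relations of the 27 chains with 6 library measures (5 marker scores and a measure of base composition described further on), each permuted 100000 times within groups. With the score of 10 granulocyte markers, 5 chains were positively and 9 negatively related at an adjusted p under 0.05. Itgam had r = 0.94 (rho = 0.94; adjusted p for both under 0.001) and 0.90 without the 2 farthest mice. Itgb6 had r = -0.80 (p = 7.0e-05; rho = -0.85, p = 7.0e-05), Lama2 -0.81 and Lama3 -0.73. With the score of 8 endothelial markers, such as Pecam1 and Emcn, 11 chains were positively related, among them Itgb5 (r = 0.94), Itga11 (0.93), Lamc1 (0.84) and Lama4 (0.72), and 3 were negatively related, Itga4 (-0.74), Itgam (-0.62) and Itgax (-0.61). When a linear fit on the granulocyte score was taken out, r between the leukocyte and the matrix integrin score was -0.06 and that between the leukocyte and the laminin score -0.19, and the 2 matrix scores kept r = 0.81. With erythroid and granulocyte scores taken out, 5 of the 16 relations of Itgam passed, of which Itga4, Itga11 and Lamb2 were among the 10 above. The other 2 were Itga5, which went from r = -0.24 to -0.75, and Itgb7, which went from 0.18 to -0.81.

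A difference between libraries in base composition ran through the same chains. For each library the slope of the centred log2 values on the GC content of transcripts was fitted over 14719 other features, and it ranged from -0.59 to 0.40 per 10 percentage points of GC. It did not differ between Control and HLU beyond the spread between mice (difference 0.00, exact permutation p = 0.987). Of the 17 chains with more than 50% GC, 15 were positively related to it, and of the 7 with less than 45%, 6 were negatively related. Itga5 (57.3% GC) had r = 0.97 and Lamb2 (58.8% GC) r = 0.91, both with a rho of 0.94 or above, while Itga4 (41.1% GC) had r = -0.62 and Itga6 (48.9% GC) r = -0.64. Across the 27 chains the correlation of GC content with r was 0.85 (Spearman's rho 0.85), and across the 14719 other features 0.71. These correlations are across genes, which are not independent replicates. Among the most uneven chains between mice, Lamb2 (r = 0.91), Itga7 (r = 0.74) and Lamc3 (r = 0.78) were positively related to the slope. Itgb6, as uneven as Lamc3, was not (r = 0.07). The part of library preparation in these relations was not tested. With the slope taken out within groups, 11 relations of Itgam passed, Itgb7 (58.0% GC) went from r = 0.18 to 0.76, and the leukocyte and laminin scores had r = -0.87. With the slope as a covariate in limma, Itgb3 and Itga8 were called as before and Itga6 was called as well (-0.31).

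**Figure D5:**
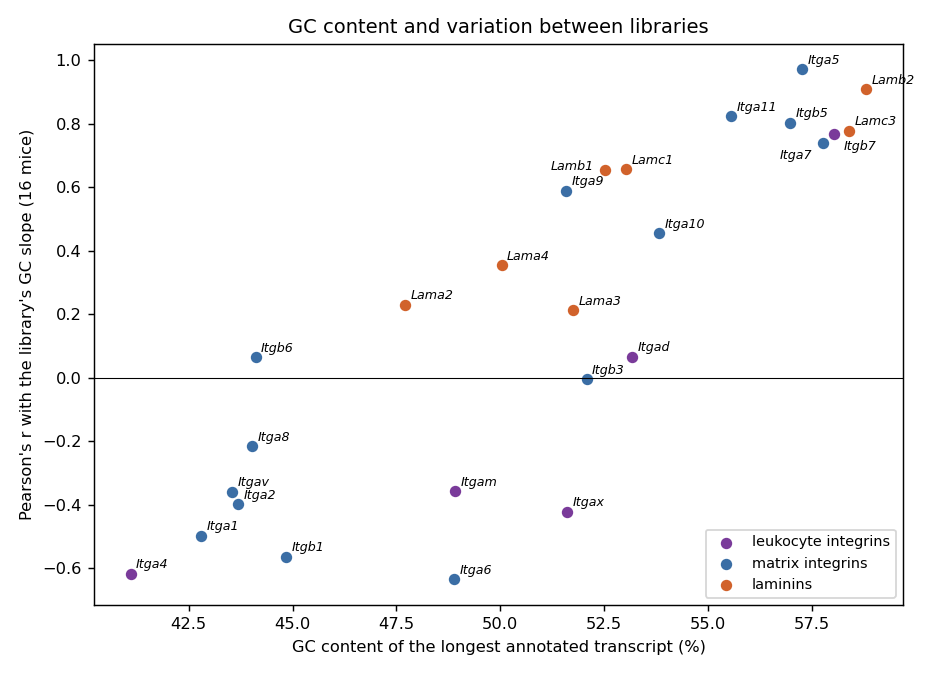
GC content of the longest annotated transcript on the x axis against Pearson's r between the level of the chain and the GC slope of the library over 16 mice on the y axis, with 1 point for each of 26 chains. Chains above 55% GC, such as Itga5 and Lamb2, lie between 0.74 and 0.97, and Itga4 at 41.1% GC lies at -0.62.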

How the data were processed

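Libraries were made by the authors with the TruSeq v2 kit, run 8 to a lane, and their reads were aligned with TopHat2. The submitters' processing notes name mm9 as the build and DESeq2 as their test. The deposited values are RPKM that the authors made for each mouse, and the counting tool and gene lengths are not given in the sources used here. Since RPKM is not a count, the comparison used limma 3.58.1 (R 4.3.3, variance trend) on log2(RPKM + 0.1) over the 16973 features whose mean reached 0.5 RPKM, so fold changes of low genes are understated. Calls needed a 1.2-fold change and a p under 0.05, or an adjusted p under 0.1 (Benjamini-Hochberg over all features). The fit was also run on simulated data in which genes varied independently. It recovered 121 of 200 simulated 2-fold changes at the adjusted threshold, with 8 false calls, so smaller changes can be missed. Groups and numbers came from the sample titles, and p-values of the group comparison weigh a difference against the spread between mice.

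Whole reads were recovered for 16973 of 16973 tested features (100% within 0.02 reads) from the divisor of each library and a whole gene length. Reads are not independent molecules. Of the features, 3887 carry the symbol Rnf135 and cannot be assigned to a gene. Exact permutation tests ran over 12870 splits and correlations used 100000 permutations within groups (Python 3.11.15, numpy 2.4.6, scipy 1.17.1, pandas 2.3.3, matplotlib 3.10.9). GENCODE M21 on GRCm38 gave positions, overlaps, exon lengths and GC content, with a value for all 34 chains. The library kit does not mark strand. Besides Itga8, the tested chains Itgam, Itgad, Itga4, Itga1, Itga10, Itga7, Itgav, Lama2, Lama3 and Lamc3 overlap other annotated genes.

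The members and all lists were chosen with earlier results of these data known. In each role group every tested chain is named with its level, except 1 that stays in the counts, sums and scores but is not reported here by itself or drawn, and with the range for the 2 most abundant and for any called chain, and chains below the filter with their highest value. The planned tests of Itgb2 were run with Itgam, its alpha partner, and with 3 ratios in place of 4, because no row was named Itgb2. Same-numbered mice did not pair, since the correlation of their deviations from the group means ranged from -0.17 to 0.51, so the block is not part of the comparison. Alternatives were other pseudocounts, filters, scalings and covariates, voom, the replicate block, and leaving out each mouse or the 2 smallest libraries.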

Additional observations from a re-analysis of the deposited data

How the results depend on the processing

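The number of chains called before adjustment was 2. It was 1 with a pseudocount of 1, 1 with a minimum mean of 2 RPKM (which drops Itga8), 7 with erythroid and granulocyte scores as covariates (Itgb3, Itgb5, Itga7, Itga4, Itga6, Itgax and Lamb2) and 0 with the megakaryocyte score as a covariate. Leaving out 1 mouse gave 1 to 5 calls, with 1 without Control 1, 2, 6 or 7 or HLU 4 or 7, 4 without Control 3 or HLU 3, and 5 without HLU 2 (Itgb3, Itga8, Itgb6, Itga6 and Itgax). Itgb3 was called in all 16 of these fits and Itga8 in 9. No chain passed the adjusted threshold under any alternative. The replicate block left both chains called, and with it the Itgb3 to Itgb1 ratio kept its difference of -0.42 at an exact sign-flip permutation p of 0.0859. It changed no other call. Across all features the calls were 996 in the comparison reported, 1439 with no filter, 735 with a minimum of 2 RPKM, 3124 with the blood scores, 1645 with the GC slope and 634 with the megakaryocyte score.

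Log2 fold changes that turned sign were all of chains that were not called. With the blood scores they were Itgad (0.062), Itgb7 (0.34), Itga10 (0.023), Itga5 (0.43), Itga1 (-0.32) and Itgav (-0.17). With the megakaryocyte score they were Itgam (0.24), Itgad (0.22), Itga4 (0.010), Itgb7 (0.23), Itga5 (0.14), Itgav (-0.27), Lama2 (-0.088) and Lama4 (-0.0010). With quantile normalization they were Itgam (0.0019) and Itgb1 (0.095), and with median-of-ratios scaling Itgb1 (0.054). With voom Itga1 was at -0.014, and without the 2 smallest libraries Itga1 was at -0.023 and Itgav at -0.14. The cause was not tested. The relations of Itgam past the adjusted threshold were 10 of 16 over all mice, 6 in Control alone, 3 in HLU alone (fewer mice) and 5 with the blood scores removed, and 8 to 11 under the other alternatives. Chains below 1 RPKM, such as Itga8 and Lama3, rest on few reads, which limits their precision.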

Other observations

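The chains could also be set beside marker scores of smooth muscle and of osteocytes in the same 162 relations, which were chosen after the data had been seen. With the score of 3 smooth muscle markers (Myh11, Acta2 and Tagln), 12 chains were positively and 4 negatively related at an adjusted p under 0.05, each mouse centred on its group mean. For this score too, the share over all features was not computed. Lamc1 had r = 0.92 (rho = 0.95), Itga7 r = 0.88 (rho = 0.84) and Itga11 r = 0.92 (rho = 0.88), each with an adjusted p under 0.001 from 100000 permutations within groups. Without the 2 mice farthest from the median of the score these were 0.88, 0.82 and 0.89. Lamb1, which varied little between mice, still followed it (r = 0.79, p = 0.00045; rho = 0.84, p = 0.00015; 0.71 without 2 mice). Lamc1, Itga7, Itga11 and Lamb1 also followed the GC slope of the library (r = 0.66, 0.74, 0.82 and 0.65). The part of that slope in their relations with the smooth muscle score was not tested. With the score of 6 osteocyte markers, such as Dmp1, Sost and Mepe, Itga10 had the highest r among the 27 chains (0.88, p = 0.00002, rho = 0.86 with p = 0.00012, and 0.78 without 2 mice). Lama4 followed (0.81, p = 0.0003, rho = 0.79 with p = 0.00081, and 0.78 without 2 mice). These relations were not particular to that score. Itga10 also had r = 0.88 with the score of 8 osteoblast markers, outside the 162 relations, and 0.77 with the endothelial score. Lama4 had r = 0.82 with the smooth muscle score. The collagen receptor chains Itga1 (r = -0.15, p = 0.570; rho = 0.05, p = 0.864) and Itga2 (r = -0.08, p = 0.766; rho = 0.08, p = 0.782) showed no such relation at this number of mice.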
